A study of Homo sapiens with 4 samples.

Results

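The PIM kinases are PIM1, PIM2 and PIM3, serine/threonine kinases encoded by separate genes, and their transcripts were followed in AMO1 cells, an established line of human plasmacytoma in which multiple myeloma is studied. The genes were found by matching the Ensembl identifiers of the deposited table to current gene symbols, which gave 1 row for each symbol, 3 of 37247 rows in all. They were selected on their TPM in this same comparison, where the members had been seen to move in opposite directions, so their levels and fold changes are given as a description, with no test. AMO1 cells, labelled as wild type, had been kept for 6 h with periplocin, whose dose the labels give as 0.2 mM, a high one for this class of drug and a unit that could not be checked here (2 libraries), or with DMSO, the vehicle, at 0.1% (2 libraries). Periplocin is a cardiac glycoside, a compound from plants that inhibits the Na/K-ATPase of the cell membrane, and the title of the series places the comparison in a study of how such drugs lower c-Myc. All libraries came from 1 cell line, and the labels do not say whether the paired libraries of a treatment were grown as separate cultures, so p-values measure only the spread among these 4 libraries, which could be technical. The values are TPM, abundances per transcript length that add up to an equal total in every library, so levels of different genes can be set side by side but the number of reads behind them is unknown.

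PIM kinases have a catalytic domain and little else: they are active as soon as they are made, so the cell controls them mainly through how much transcript and protein it holds. Their genes respond to cytokines through the JAK and STAT proteins and to NF-kB, their transcripts and proteins are short-lived, and the kinases phosphorylate regulators of the cell cycle, of translation and of cell death that the AKT kinases also act on. PIM2 is the member known for its high level in myeloma cells, and PIM kinases are known to stabilise c-Myc protein.

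The cells carried the transcripts of their label. Of 9 plasma cell markers 8 reached at least 1 TPM in all 4 libraries (CD79A did not), and of 18 markers of T and NK cells, B cells, myeloid cells, epithelial cells and fibroblasts 12 stayed under 1 TPM in every library. Of the 8 plasma cell markers SLAMF7 was called higher with periplocin, and XBP1, IRF4, PRDM1 and MZB1 lower (limma, adjusted p under 0.05). Over all tested genes 10.4% were called higher and 18.9% lower. The summed TPM of the second list was 26.7 and 24.5 with periplocin and 29.7 and 27.3 with DMSO. Most of it came from the keratin gene KRT8. Of its T and NK cell markers CD3D was listed at 0 throughout, while CD3E reached at least 1 TPM in all 4 libraries. NKG7 was above 1 TPM in both DMSO libraries and under 1 TPM in both periplocin libraries. It was called lower with periplocin (log2 fold change -1.54, limma adjusted p = 0.0465). Of the genes in the table, 12947 reached at least 1 TPM in at least 2 libraries and were tested, and their median log2 fold change of TPM + 1 was -0.14 as deposited, -0.01 with median-of-ratios size factors and 0.02 with median centring. In bulk RNA a change in the amount of a transcript per cell and a change in how many cells carry it cannot be told apart.

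PIM2, the abundant member, was lower with periplocin, and PIM1 and PIM3 were higher. PIM2 stood at 364 and 365 TPM in the periplocin libraries, against 912 and 886 TPM in the DMSO libraries. The treated pair lay close together and far below the vehicle pair. The mean was 364 ± 0.953 TPM with periplocin and 899 ± 17.9 TPM with DMSO (SD, n = 2), 0.405 times the vehicle level (log2 fold change -1.30, standard error 0.06).

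PIM1, the founding member of the family and a known target of STAT transcription factors, was the least abundant member in vehicle cells. Its mean TPM there stood at percentile 58.0 of the tested genes. Its level was 73.9 and 67.4 TPM in the periplocin libraries, against 21.1 and 24.4 TPM in the DMSO libraries. Both treated libraries lay well above both vehicle libraries. The mean was 70.6 ± 4.58 TPM with periplocin and 22.8 ± 2.30 TPM with DMSO (SD, n = 2), 3.10 times the vehicle level (log2 fold change 1.59, standard error 0.12). PIM3, a kinase also known for its part in energy metabolism, stood at 294 and 264 TPM in the periplocin libraries, against 149 and 131 TPM in the DMSO libraries. Both treated libraries lay above both vehicle libraries here too. Such separation was not counted over all tested genes, so it does not set the PIM genes apart. The mean was 279 ± 21.1 TPM with periplocin and 140 ± 12.6 TPM with DMSO (SD, n = 2), 2.00 times the vehicle level (log2 fold change 0.99, standard error 0.10).

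**Figure D1:**
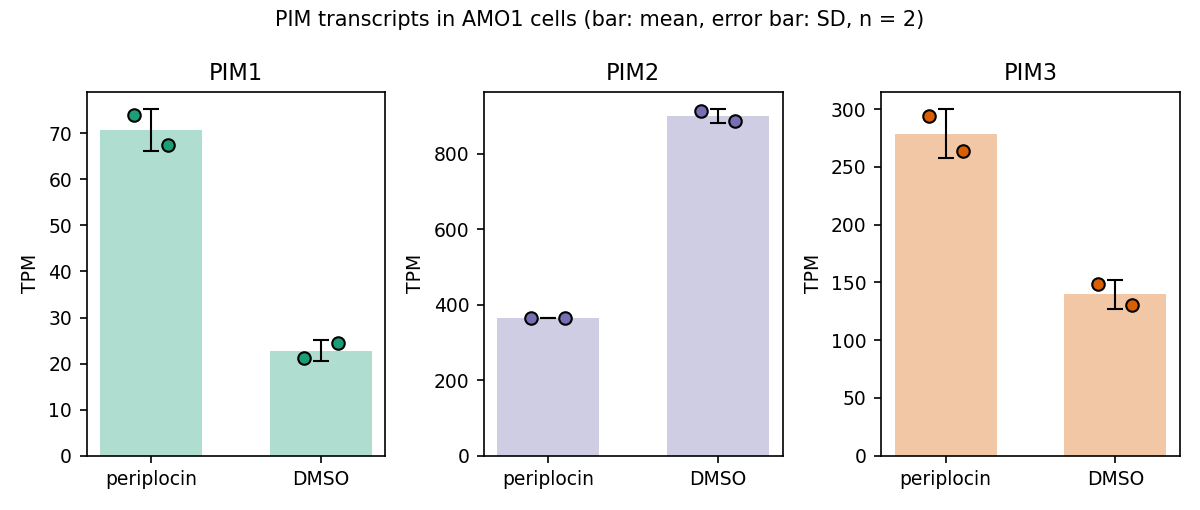
TPM of PIM1, PIM2 and PIM3 (vertical axes, each panel on its own scale) in the periplocin and DMSO libraries; points are libraries, bars the mean and error bars the SD (n = 2). PIM2 sits near 364 TPM with periplocin against 899 TPM with DMSO, while PIM1 and PIM3 are higher with periplocin.

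Against the gap between the libraries of a group these differences were wide. On the log2(TPM + 1) scale the 2 periplocin libraries differed by 0.13 for PIM1, 0.0053 for PIM2 and 0.15 for PIM3, and the 2 DMSO libraries by 0.20, 0.041 and 0.18 in the same gene order. The median gap over all tested genes was 0.18 between the periplocin libraries and 0.17 between the DMSO libraries. Leaving out each library in turn placed the log2 fold change of PIM1 between 1.50 and 1.69, of PIM2 between -1.32 and -1.28, and of PIM3 between 0.90 and 1.08. With size factors, which take out the shift in the median gene, the log2 fold changes were 1.74 for PIM1, -1.16 for PIM2 and 1.14 for PIM3. Ranked by log2 fold change among the 12947 tested genes, PIM1 was number 70 from the highest, PIM3 number 394 from the highest and PIM2 number 501 from the lowest.

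The balance within the family shifted further than its total. PIM2 made up 49.7% and 52.4% of the summed PIM TPM in the periplocin libraries, against 84.3% and 85.1% in the DMSO libraries. PIM3 made up 40.2% and 37.9% with periplocin, against 13.7% and 12.6% with DMSO. PIM1 made up 10.1% and 9.68% with periplocin, against 1.95% and 2.34% with DMSO. PIM2 thus stayed the largest member in every library, but its lead over PIM3 narrowed to 1.24 and 1.38 times with periplocin, against 6.13 and 6.78 times with DMSO. Its lead over PIM1 was 4.92 and 5.42 times with periplocin and 43.1 and 36.4 times with DMSO. A share or ratio within a library does not change when that library is rescaled.

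The order PIM2, PIM3, PIM1 held in all 4 libraries, and no neighbours in that order overlapped within a group. The summed PIM level was 731 and 696 TPM with periplocin, against 1082 and 1042 TPM with DMSO, or 0.672 times the vehicle mean. PIM2 accounted for a difference of -535 TPM, against 47.9 TPM for PIM1 and 139 TPM for PIM3. After division by size factors the sums were 769 and 726 with periplocin and 1032 and 977 with DMSO, so the family total was lower with periplocin on that scale as well.

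**Figure D2:**
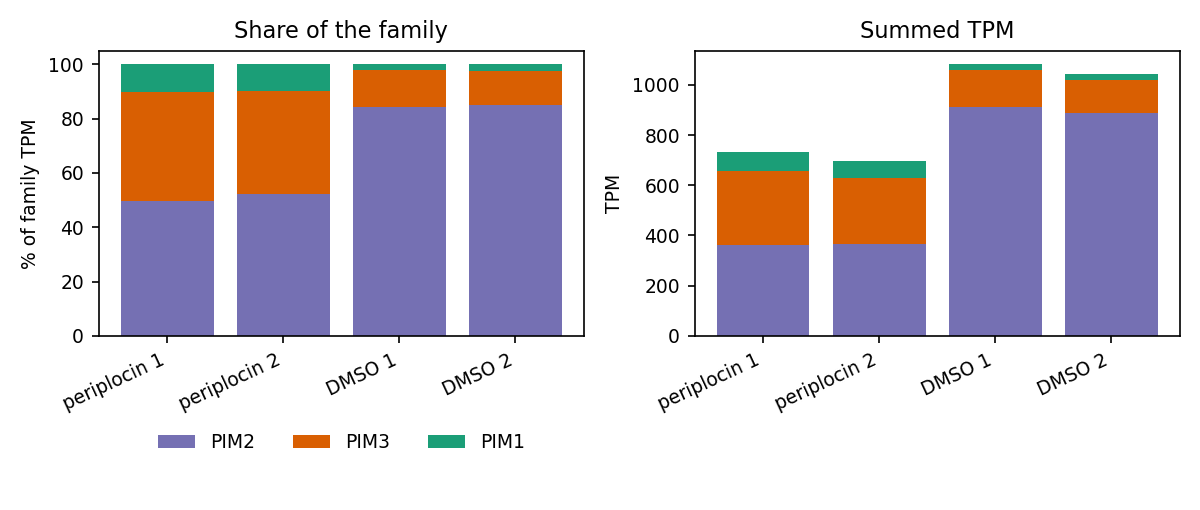
Share of each PIM gene in the summed PIM TPM (left, percent) and the summed TPM itself (right) in the 2 periplocin and 2 DMSO libraries, 1 stacked bar per library. PIM2 takes 49.7% and 52.4% of the bars with periplocin, against 84.3% and 85.1% with DMSO, and the periplocin bars are shorter in TPM.

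Among all tested genes PIM2 ranked 309 by mean TPM with periplocin and 151 with DMSO, PIM3 ranked 418 with periplocin and 915 with DMSO, and PIM1 ranked 1996 with periplocin and 5441 with DMSO. PIM kinases belong to the CAMK group of protein kinases, which also holds the calcium/calmodulin-dependent, AMP-activated and checkpoint kinases. In a set of 57 genes of that group, the PIM genes included, PIM2 and PIM3 were the 2 most abundant under both conditions, followed by PRKD2, a kinase of the protein kinase D family, at 122 TPM with periplocin and 99.8 TPM with DMSO. PIM1 stood at place 6 with periplocin and at place 25 with DMSO.

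**Figure D3:**
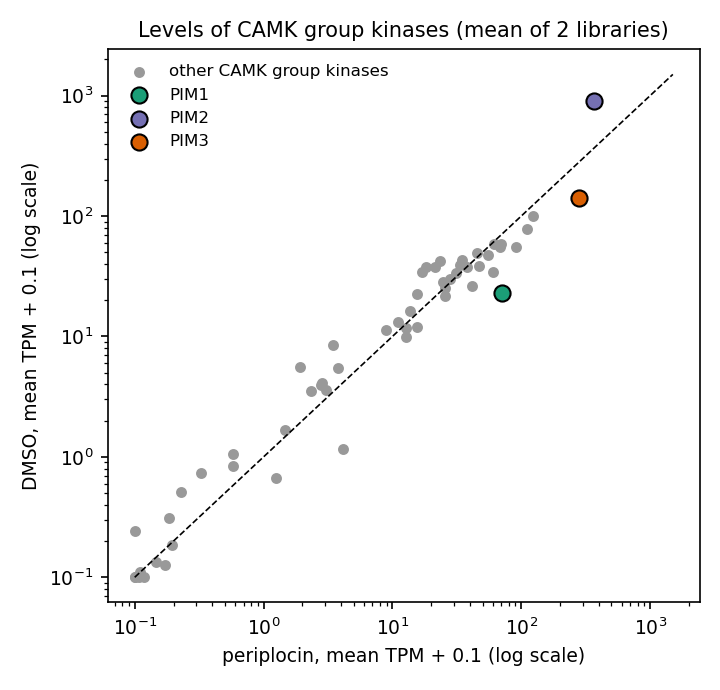
Mean TPM + 0.1 with periplocin (horizontal, log scale) against DMSO (vertical, log scale) for 57 CAMK group genes, means of 2 libraries; the dashed line marks equal levels. PIM2 lies above the line at the top, and PIM1 and PIM3 lie below it, on the periplocin side.

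The genes lie on different chromosomes and share the exon number of their main transcript. On GRCh38, as annotated in GENCODE 29, PIM1 lies at chr6:37170203-37175426 on the plus strand, PIM2 at chrX:48913182-48919024 on the minus strand and PIM3 at chr22:49960513-49964080 on the plus strand. The longest coding transcript has 6 exons in each and is 2650 bases long for PIM1, 2075 for PIM2 and 2369 for PIM3. Cut into all words of 31 bases, these transcripts shared none with one another. PIM2 and PIM3 shared none with transcripts of any other gene, and PIM1 shared 5 of 2620, so few reads of that length could be split between rows. The one annotated gene that overlaps a member is the microRNA gene MIR6821, on the same strand as PIM3, and whether counting used strand is not stated.

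The stretch before the start of PIM2 differed in composition from those of PIM1 and PIM3. The 250 bases before the RefSeq start (GRCh38.p14) held 79.6% G and C for PIM1, 61.2% for PIM2 and 82.0% for PIM3, against a median of 58% over 35116 such windows, which places them at percentiles 96.3, 57.0 and 98.3. The windows of PIM1, the member with the highest fold change, and of PIM2, the one that was lower, are shown 5′ to 3′ on the strand of the gene. Capitals mark the GC box (GGGCGG, the core bound by SP1) and the octamer (ATGCAAAT, bound by POU factors), each on either strand, with no overlap between them. The first window is chr6:37169902-37170151, plus strand, and the second chrX:48919025-48919274, minus strand.
PIM1: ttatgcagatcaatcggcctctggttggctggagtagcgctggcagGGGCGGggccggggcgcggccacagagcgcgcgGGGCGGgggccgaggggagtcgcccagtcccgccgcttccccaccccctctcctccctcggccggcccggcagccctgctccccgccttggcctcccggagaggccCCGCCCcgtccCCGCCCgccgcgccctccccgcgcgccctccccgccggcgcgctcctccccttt
PIM2: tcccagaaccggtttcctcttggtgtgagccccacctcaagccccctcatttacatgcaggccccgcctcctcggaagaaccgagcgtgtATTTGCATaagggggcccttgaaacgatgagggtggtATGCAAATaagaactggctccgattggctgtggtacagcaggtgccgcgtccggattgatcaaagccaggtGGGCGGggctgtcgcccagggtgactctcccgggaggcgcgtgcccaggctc
PIM1 had 4 GC boxes, as did PIM3, and PIM2 had 1. At least 1 stood in 42.6% of all windows, and the share with 4 was not counted. Windows as rich in G and C as those of PIM1 and PIM3 were not compared. The octamer was found at 2 places before PIM2, beginning 160 and 123 bases before the start, and was not in the windows of PIM1 or PIM3. At least 1 octamer stood in 1.63% of all windows, and the word was looked for after the PIM2 sequence had been seen. None of the 3 windows held the STAT site TTCNNNGAA, the NF-kB consensus, the E-box CACGTG, the partial site TGACG of CREB and ATF factors or the heat shock core GAANNTTC, which 6.57%, 9.96%, 6.34%, 21.2% and 5.78% of all windows held, in that order. These are matches of letters in short windows and were not tested as binding sites. GENCODE 29 begins PIM3 upstream of the RefSeq start, so that its window lies within the annotated gene, and its letters are not shown. Over the tested genes with a window, the median log2 fold change was -0.13 for the 124 with an octamer and -0.13 for the 9168 without. It was 0.53 for the 5 genes with 2 or more octamers, the number PIM2 has, and -0.12 for the 1312 with at least 4 GC boxes.

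The stretches after the coding sequence also differed. The AU-rich word TATTTAT, the core of elements that speed the decay of many short-lived transcripts, was counted with overlaps in the 3′ untranslated region of the longest coding transcript in GENCODE 29. PIM1 had 4 in 1335 bases, PIM3 had 2 in 953 bases and PIM2 had none in 949 bases. The shorter word ATTTA separated the members less, with 5 in PIM1, 4 in PIM3 and 2 in PIM2, and A and T made up 51.8%, 42.0% and 52.9% of the region in the same order. Of genes whose region is 0.8 to 1.25 times as long, 31.4% held the word for the length of PIM1 and 23.8% for the lengths of PIM2 and PIM3. The first such place in PIM1 and in PIM3, the members that were higher with periplocin, is shown with 9 bases on either side, the word in capitals.
PIM1: aatgttatgTATTTATttatttatt
PIM3: caactctgtTATTTATggtgtgacc
In PIM1 the word begins a run of overlapping repeats, and in PIM3 it stands alone at that place. Over tested genes with regions of 0.8 times the shortest to 1.25 times the longest of these lengths, the median log2 fold change was -0.05 for the 208 with 2 or more such words, -0.06 for the 531 with 1, and -0.16 for the 1955 with none. Their median region lengths were 1263, 1235 and 1138 bases, and the part of length in this order was not tested. The word was chosen after the PIM values were known.

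The genes beside each PIM gene had smaller or opposite differences, where the PIM genes had been selected on theirs. Of the 2 nearest genes on either side with a mean of at least 1 TPM, 12 in all, none was called higher and 4 were called lower (limma, adjusted p under 0.05, against 18.9% of all tested genes called lower and 10.4% called higher). CRELD2, an endoplasmic reticulum protein whose gene ends 32972 bases before PIM3 on the same strand, stood at 27.9 and 23.9 TPM with periplocin, against 68.3 and 57.7 TPM with DMSO. It fell, with a log2 fold change of -1.25 (limma adjusted p = 0.00442), beside a PIM3 that was higher. ALG12, a mannosyltransferase of protein glycosylation on the same side, had a log2 fold change of -0.78 (limma adjusted p = 0.0493). Beside PIM2, SLC35A2, a UDP-galactose transporter whose gene lies 1223 bases away on the same strand, had 26.5 and 27.0 TPM with periplocin, against 36.5 and 34.3 TPM with DMSO, a log2 fold change of -0.39 (limma adjusted p = 0.0488). OTUD5, a deubiquitinase 3003 bases away on the other side, stood at 0.23 (limma adjusted p = 0.150; with size factors 0.37, adjusted p = 0.0415). RNF8, a ubiquitin ligase 178545 bases after PIM1, had -0.73 (limma adjusted p = 0.0315), MTCH1, a mitochondrial protein gene before PIM1, had 0.30 (limma adjusted p = 0.0690; with size factors 0.44, adjusted p = 0.0249), and TBC1D22B, the nearest expressed gene to PIM1 at 82345 bases, had 0.16 (limma adjusted p = 0.596). The calls of ALG12, SLC35A2 and RNF8 did not hold with size factors (limma adjusted p = 0.0840, 0.150 and 0.0585).

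**Figure D4:**
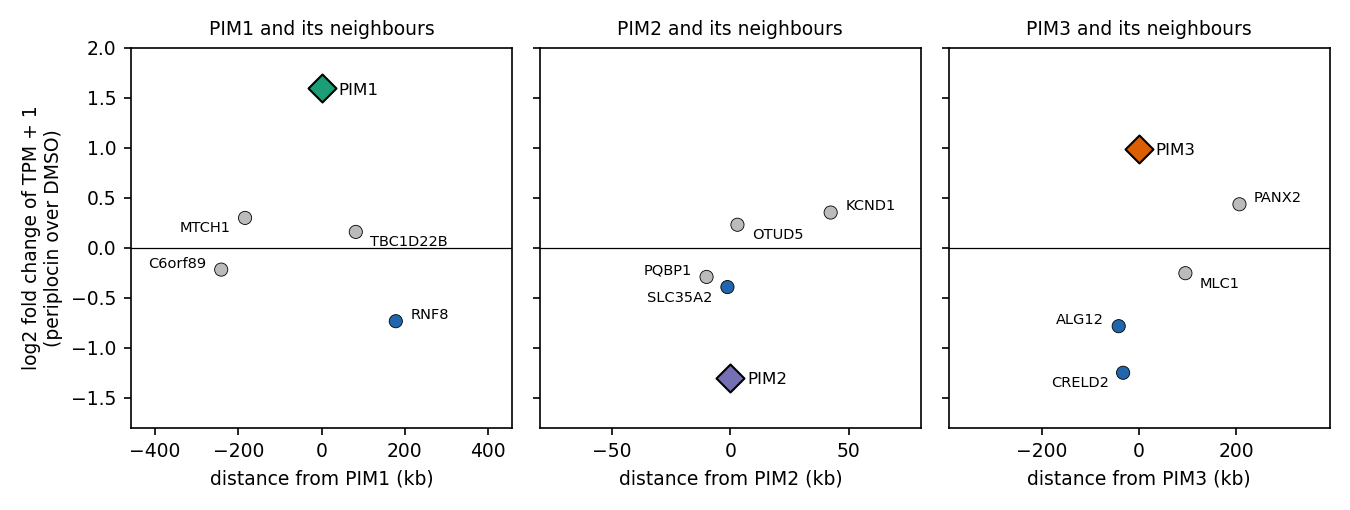
Log2 fold change of TPM + 1 (vertical, periplocin over DMSO) for each PIM gene (diamond) and its 2 nearest expressed genes on either side, by distance in kb (horizontal). Blue marks genes called lower and grey genes not called. PIM1 at 1.59 and PIM3 at 0.99 lie above all their neighbours, and PIM2 at -1.30 lies below all of its own.

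For each member the genes nearest in pattern were found by the distance between log2(TPM + 1) values over 4 libraries, each gene centred on its own mean, among coding genes with a mean of at least 5 TPM. For PIM1 they were MARCKS, a substrate of protein kinase C (distance 0.0915; 158 and 155 TPM with periplocin, 48.8 and 53.4 TPM with DMSO), SLAMF7, a surface antigen of myeloma cells (0.109), and LCORL (0.132). For PIM2 they were PRRT3 (0.0154; 3.80 and 3.83 TPM with periplocin, 11.0 and 10.8 TPM with DMSO), the mitochondrial dicarboxylate carrier SLC25A10 (0.0340) and RIOX1, a ribosomal oxygenase (0.0519). For PIM3 they were PLEKHH3 (0.0143; 75.5 and 67.5 TPM with periplocin, 37.4 and 32.8 TPM with DMSO), the mTORC1 inhibitor TSC1 (0.0330) and CDCA4 (0.0644). With 4 libraries in 2 groups such likeness is mostly likeness of the difference between the groups.

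Transcripts of the cytokine pathway that drives PIM1 and PIM2 in many blood cells were called in both directions, as were those of all tested genes. Of 40 genes of JAK and STAT signalling 37 were tested, 5 rose and 7 fell (limma; 10.4% of all tested genes were called higher and 18.9% lower), with a median log2 fold change of 0.03 against -0.14 over all tested genes. As deposited these counts lie near the shares over all tested genes, so they are no result about the pathway. Among receptors LIFR, which binds leukaemia inhibitory factor, stood at 35.7 and 37.1 TPM with periplocin and 14.7 and 16.0 TPM with DMSO and rose by 1.20 (limma adjusted p = 0.00413); sizes of changes here and in the other lists are log2 fold changes of TPM + 1. IL2RG, the shared chain of several interleukin receptors and the most abundant of the list, stood at 523 and 508 TPM with periplocin and 456 and 463 TPM with DMSO, a log2 fold change of 0.16 (limma adjusted p = 0.103; with size factors 0.31, adjusted p = 0.0198).

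Among the kinases JAK2, at a low level in all libraries, fell to 2.01 and 2.60 TPM with periplocin, against 6.78 and 9.31 TPM with DMSO (log2 fold change -1.44, limma adjusted p = 0.0118). STAT3, a direct activator of PIM1, averaged 43.7 ± 2.23 TPM with periplocin and 30.6 ± 2.27 TPM with DMSO (SD, n = 2). It rose by 0.50 (limma adjusted p = 0.0263). Of 6 tested STAT genes 2 rose and 2 fell, where 10.4% of all tested genes were called higher and 18.9% lower. Named after their values were seen, STAT2 rose by 0.62 (limma adjusted p = 0.00964). STAT5B fell by 0.61 and STAT6 by 0.91 (limma adjusted p = 0.0246 and 0.00778). Of 13 tested feedback genes 2 rose and 2 fell, where 10.4% of all tested genes were called higher and 18.9% lower. The feedback inhibitor SOCS2 fell by 1.40 (limma adjusted p = 0.0188), as did PTPN6, the phosphatase SHP-1, by 0.93 (limma adjusted p = 0.00394). SOCS5 rose by 0.80 and PIAS1 by 0.71, named after their values were seen (limma adjusted p = 0.0324 and 0.0169).

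SOCS3, a STAT3 target, was near the lower limit of the table at 2.18 and 2.09 TPM with periplocin and 0.780 and 0.611 TPM with DMSO, and did not pass as deposited (0.89, limma adjusted p = 0.0624), but it passed with size factors (0.0495), median centring (0.0408) and no variance trend (0.0243). CISH, a STAT5 target, was listed at 0 and 0.339 TPM with periplocin and 0.282 and 0.349 TPM with DMSO and was not tested. Leaving out any library gave fewer calls over all tested genes in both directions. With size factors 2012 of all 12947 tested genes passed upward and 1745 downward, and of this list 11 and 5. Without periplocin replicate 1 the counts were 1 and 3, without periplocin replicate 2 they were 2 and 3, and without either DMSO library no gene of the table passed in limma, where 3925 genes (without DMSO replicate 1) and 4156 (without DMSO replicate 2) were under 0.05 before adjustment, and 5585 when no library was left out. STAT3 and SOCS2 did not pass when either periplocin library was left out (limma adjusted p = 0.115 and 0.0830 for STAT3, 0.0806 and 0.0636 for SOCS2, without replicate 1 and 2), nor JAK2 without replicate 1 (0.0563).

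More genes of the NF-kB pathway rose than fell. Of 30 such genes 27 were tested, 10 rose and 2 fell, and the median log2 fold change was 0.22, where 10.4% of all tested genes were called higher and 18.9% lower. The inhibitors, some of which NF-kB itself induces, held 5 of the 10 rises: 5 of 8 rose and none fell. NF-kB activity was not tested. NFKBIE, an inhibitor of the I-kappa-B family, stood at 28.3 and 27.6 TPM with periplocin and 14.5 and 14.6 TPM with DMSO and rose by 0.89 (limma adjusted p = 0.00721). The subunit RELB, of the non-canonical branch, stood at 71.4 and 59.2 TPM with periplocin and 36.4 and 31.6 TPM with DMSO and rose by 0.92 (limma adjusted p = 0.00778). The adaptors TRAF6 (0.88, limma adjusted p = 0.0350) and TAB2 (0.85, limma adjusted p = 0.0192) and the subunit gene NFKB2 (0.39, limma adjusted p = 0.0146) also rose.

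TNFRSF17, which encodes the myeloma antigen and survival receptor BCMA and was the most abundant of the list, stood at 286 and 343 TPM with periplocin and 273 and 309 TPM with DMSO and did not pass (0.11, limma adjusted p = 0.490). With size factors 11 genes of the list passed upward and 2 downward, against 2012 and 1745 of all 12947 tested genes. Leaving out any library gave fewer calls in both directions, in the list and over all tested genes alike. TRAF6, TAB2 and NFKB2 were among the calls lost when either periplocin library was left out (limma adjusted p = 0.138, 0.0709 and 0.0658 without replicate 1 and 0.103, 0.0954 and 0.0724 without replicate 2).

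**Figure D5:**
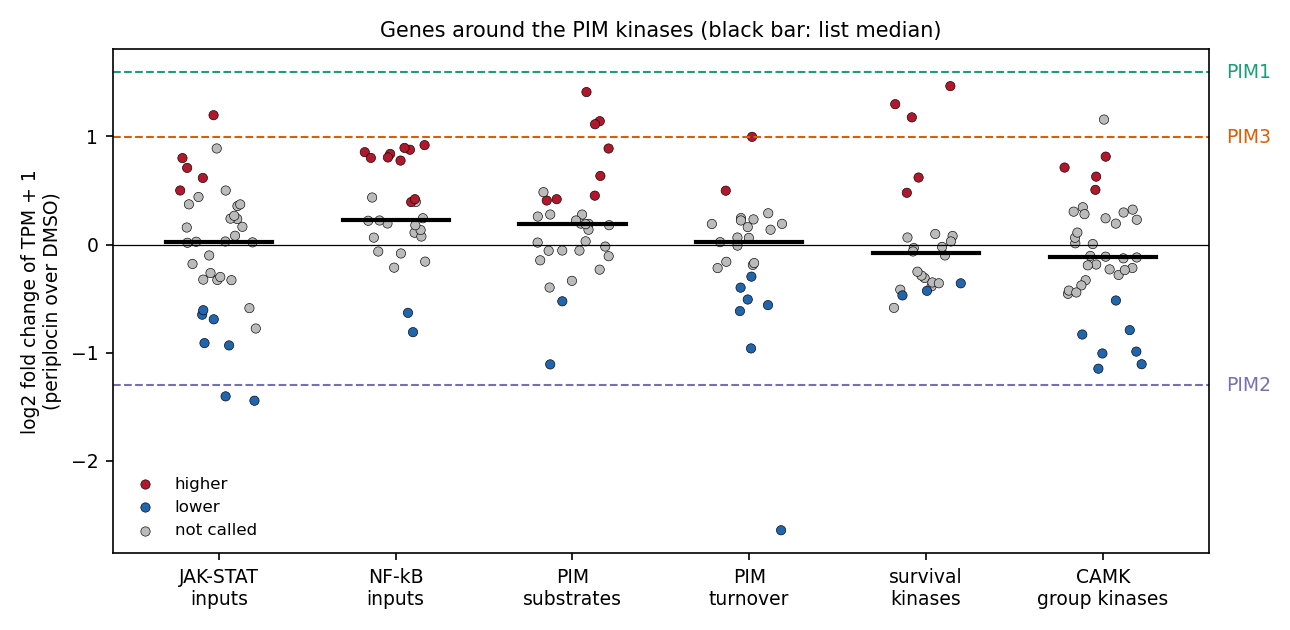
Log2 fold change of TPM + 1 (vertical, periplocin over DMSO) of the tested genes of 6 lists around the PIM kinases, 1 point per gene, red for genes called higher, blue for genes called lower and grey for genes not called (limma, adjusted p under 0.05); black bars are list medians and dashed lines the PIM genes. The NF-kB median lies at 0.22 and 10 of its 27 points are red, while HSPA8 in the turnover list lies lowest at -2.64.

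Transcripts of PIM substrates were higher more often than lower. Of 32 genes whose proteins are phosphorylated by PIM kinases 31 were tested, 8 rose and 2 fell, with a median log2 fold change of 0.19, where 10.4% of all tested genes were called higher and 18.9% lower. CXCR4, the chemokine receptor whose surface level PIM1 controls, stood at 197 and 205 TPM with periplocin and 70.1 and 80.1 TPM with DMSO and rose by 1.41 (limma adjusted p = 0.00233). The cell cycle substrates held 5 of the 8 rises and no fall. CDKN1A, the inhibitor p21, rose to 501 and 466 TPM with periplocin, against 229 and 209 TPM with DMSO (1.14, limma adjusted p = 0.00245), and MDM2, the ligase of p53, by 1.11 (limma adjusted p = 0.00361). CDKN1A and MDM2 are also known p53 targets.

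MYC, whose protein PIM kinases phosphorylate, stood at 278 and 282 TPM with periplocin and 578 and 631 TPM with DMSO and fell by 1.11 (limma adjusted p = 0.00218). Its level moved in the direction of PIM2 and against PIM1 and PIM3. PKM, the glycolytic enzyme pyruvate kinase and the most abundant of the list, had 0.19 (limma adjusted p = 0.0608; with size factors 0.33, adjusted p = 0.0131). With size factors the counts were 11 and 1, against 2012 and 1745 of all 12947 tested genes. Leaving out any library gave fewer calls in both directions, in the list and over all tested genes alike.

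Of 25 genes that act on PIM transcripts and proteins, all tested, 2 rose and 7 fell, with a median log2 fold change of 0.02 against -0.14 over all tested genes. Lower calls also outnumbered higher ones over all tested genes (10.4% higher and 18.9% lower), so the split is no result about the list, and median centring gave 6 and 6. The change with the widest gap was in HSPA8, the constitutive chaperone HSC70, at 437 and 487 TPM with periplocin and 2836 and 2922 TPM with DMSO (log2 fold change -2.64, limma adjusted p = 0.000427). Chaperones of the HSP90 system hold PIM kinases in a stable form. All 4 chaperone genes of the list fell: besides HSPA8, CDC37, which hands kinases to HSP90 (-0.61, limma adjusted p = 0.00732), and, named after their values were seen, HSP90AA1 (-0.56, limma adjusted p = 0.00778) and HSP90AB1 (-0.40, limma adjusted p = 0.0111).

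ZFP36, or tristetraprolin, which binds AU-rich words like those of PIM1 and PIM3 and leads the transcript to decay, stood at 201 and 163 TPM with periplocin and 374 and 334 TPM with DMSO and fell by 0.96 (limma adjusted p = 0.00536). Its relatives, which bind the same kind of word and are named after their values were seen, did not move with it. ZFP36L2 stood at 70.8 and 70.0 TPM with periplocin and 48.0 and 51.2 TPM with DMSO and rose by 0.50 (limma adjusted p = 0.0154), and ZFP36L1 had 0.23 (limma adjusted p = 0.358). Whether any of these proteins acts on the PIM transcripts in these cells was not tested. RC3H1, or roquin, another decay factor, stood at 9.98 and 9.26 TPM with periplocin and 3.77 and 4.94 TPM with DMSO and rose by 1.00 (limma adjusted p = 0.0198). EIF4A1, the helicase of cap-dependent translation, had -0.16 (limma adjusted p = 0.112). Of 9 subunit genes of the phosphatase PP2A, which removes PIM phosphorylation, 1 fell (PPP2R1B, named after its value was seen) and none rose. Of all tested genes 10.4% were called higher and 18.9% lower, so this count is no result about the phosphatase. With size factors 4 genes of this list passed upward and 6 downward, against 2012 and 1745 of all 12947 tested genes. Leaving out any library gave fewer calls in both directions, in the list and over all tested genes alike. RC3H1 did not pass when either periplocin library was left out (limma adjusted p = 0.0887 and 0.0777 without replicate 1 and 2).

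Of 27 genes of kinases that share substrates with PIM, and of the regulators above them, 24 were tested, 5 rose and 3 fell, with a median log2 fold change of -0.08. Over all tested genes 10.4% were called higher and 18.9% lower. SGK1, a kinase close to AKT that is induced by osmotic stress, stood at 525 and 574 TPM with periplocin and 184 and 214 TPM with DMSO and rose by 1.47 (limma adjusted p = 0.00218). RICTOR, the scaffold of mTORC2, rose by 1.30 (limma adjusted p = 0.00870), the kinase RPS6KA5 by 1.18 (limma adjusted p = 0.0170) and PIK3R1, a regulatory subunit of PI3 kinase, by 0.62 (limma adjusted p = 0.0387). AKT2, the most abundant AKT gene, stood at 142 and 136 TPM with periplocin and 134 and 129 TPM with DMSO and did not pass (0.08, limma adjusted p = 0.480). With size factors 5 genes were higher and none lower, against 2012 and 1745 of all 12947 tested genes. Leaving out any library gave fewer calls in both directions, in the list and over all tested genes alike. Without periplocin replicate 2 SGK1 was still called, and RICTOR, RPS6KA5 and PIK3R1 were not. PIK3R1 was also lost without replicate 1. The 3 that fell with all libraries were AKT1, PIK3CG and INPP5D, named after their values were seen.

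Of 54 relatives of PIM in the CAMK group 39 were tested, 4 rose and 7 fell, with a median log2 fold change of -0.12. These shares and this median lie near those of all tested genes (10.4% higher, 18.9% lower, median -0.14), so the counts are no result about the relatives. PASK, a kinase that senses nutrients and is close to PIM in sequence, stood at 16.2 and 17.5 TPM with periplocin and 37.9 and 31.1 TPM with DMSO and fell by 0.99 (limma adjusted p = 0.00789). TRIB2, a pseudokinase scaffold, fell by 1.01 (limma adjusted p = 0.00690), SIK1 by 1.11 (limma adjusted p = 0.0279) and TSSK6 by 1.15 (limma adjusted p = 0.0404). MKNK2, which phosphorylates the cap-binding protein eIF4E, rose by 0.51 (limma adjusted p = 0.0242), and PRKD2 had 0.28 (limma adjusted p = 0.146). No tested relative had a log2 fold change above that of PIM1 or below that of PIM2. The PIM genes were selected on these changes and the relatives were not, so this does not set PIM apart. With size factors 6 relatives passed upward and 5 downward, against 2012 and 1745 of all 12947 tested genes. Leaving out any library gave as many or fewer calls in each direction among the relatives, and fewer over all tested genes. SIK1 and TSSK6 did not pass when either periplocin library was left out, nor did MKNK2 without replicate 1, and TSSK6 did not pass with size factors (limma adjusted p = 0.0515).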

How the data were processed

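RNA of AMO1 cells was sequenced as paired ends, per the labels' protocols, and the authors deposited 1 table of TPM values for 37247 gene rows. GRCh38 is named in the submitters' processing notes. Neither an aligner nor a quantifier is given in the sources consulted. Columns headed PP were taken to be periplocin. Current symbols matched 34436 rows, and positions came from GENCODE 29 on GRCh38 (34620 rows). TPM keeps no depth, so no counting interval can be given.

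From the deposited TPM, genes with at least 1 TPM in at least 2 of 4 libraries (12947) entered a two-sided limma-trend fit on log2(TPM + 1) values, periplocin over DMSO (limma 3.58.1, R 4.3.3). P-values were adjusted by Benjamini and Hochberg's method across those genes, and 0.05 was the threshold. Fold changes on this scale are too small for genes with low values. The smallest p of an exact permutation test with 2 libraries a side is 0.333, so each call borrows its spread from other genes. Tables and plots used Python 3.11.15, pandas 2.3.3, numpy 2.4.6 and matplotlib 3.10.9.

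The members, the gene lists, the motifs and the tests were chosen with earlier results of these data known. The PIM genes and MYC, STAT3, SOCS3 and CISH were named whatever their result. Also named were up to 4 called genes per list with the widest change and a mean of at least 5 TPM in the higher group, the 2 most abundant of each list, the 2 nearest expressed genes on either side of each PIM gene and the 3 genes nearest in pattern. A gene that this rule names is not reported here. Sequences are from RefSeq (GRCh38.p14), with a window for each of the 3 PIM genes, and from GENCODE 29 transcripts. Alternatives were another pseudocount (0.1), no filter, size factors, median centring, no variance trend, a replicate block and leaving out each library.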

Additional observations from a re-analysis of the deposited data

How the results depend on the processing

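The directions of the 3 PIM fold changes held with the other pseudocount, size factors, median centring and each library left out. The directions of their shifts in share held with each library left out. The filter, the variance trend and the block cannot change a fold change, and rescaling a library cannot change a share. With size factors the log2 fold changes were 1.74 (PIM1), -1.16 (PIM2) and 1.14 (PIM3), and with median centring 1.76, -1.14 and 1.16. The family difference, -348 TPM as deposited, was -257 with size factors. Over all genes 1352 were higher and 2443 lower as deposited, 2117 and 1553 with median centring, 2012 and 1745 with size factors, 613 and 1026 with no filter, and 876 and 1932 with no variance trend.

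For the lists, with no filter JAK and STAT genes gave 2 higher and 2 lower, NF-kB genes 5 and 1, substrates 5 and 1, turnover genes 1 and 4, survival kinases 2 and 0, and CAMK relatives 3 and 3. With size factors these were 11 and 5, 11 and 2, 11 and 1, 4 and 6, 5 and 0, and 6 and 5 in the same order, and with median centring 11 and 5, 13 and 2, 12 and 1, 6 and 6, 5 and 0, and 7 and 5. With no variance trend the substrates gave 4 and 1, the turnover genes 1 and 3, and the survival kinases 4 and 0. The cause of these moves was not tested.

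Leaving out 1 library gave 0 to 522 higher and 0 to 1142 lower over all genes, 0 to 2 and 0 to 3 for JAK and STAT genes, 0 to 5 and 0 to 1 for NF-kB genes, 0 to 4 and 0 to 1 for substrates, 0 to 0 and 0 to 5 for turnover genes, 0 to 3 and 0 to 0 for survival kinases, and 0 to 4 and 0 to 3 for CAMK relatives. Of 40 called named genes 24 kept the call in every alternative but the 2 without a DMSO library.

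The labels number the libraries 1 and 2 in both groups and do not say that equal numbers mark a shared culture or day. The deviations of same-numbered libraries correlated at 0.0324 across genes, which are not independent replicates. With the number as a replicate block 10 JAK and STAT genes were higher and 5 survival kinases lower, against 5 and 3. Each group holds libraries numbered 1 and 2, so the block cannot change any fold change. It therefore says nothing about how stable the PIM fold changes are.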
